A study of Mus musculus with 35 samples.

Results

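Cytosolic ribosomal protein genes were followed in kidneys of newborn mice that lack folliculin (Flcn) alone or together with the transcription factors Tfeb or Tfe3. They were chosen by symbol, as every gene named Rpl or Rps with a number and at most a closing a, l or x, plus Rplp0 to Rplp2 and Rpsa, leaving out the ubiquitin fusion gene Rps27a. The rule found 79 of the 31053 counted genes, 49 of the large (60S) subunit and 30 of the small (40S) subunit. Counts of 76 were high enough to be tested in each comparison. The other 3, Rpl3l, Rpl10l and Rpl39l, are low-level relatives of Rpl3, Rpl10 and Rpl39.

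The series holds 35 libraries of whole kidney RNA from C57BL/6 mice at postnatal day 2, each a separate biological replicate by its label. Flcn KO kidneys (n = 5) were Flcn flox/flox with Ksp-cre, a Cre driven by the cadherin 16 promoter, whose activity includes collecting ducts, distal tubules and the thick ascending limb. Flcn/Tfeb DKO kidneys (n = 4) carried Tfeb flox/flox in addition, so that both genes were removed from the same tubules. Flcn/Tfe3 DKO kidneys (n = 10) were Flcn flox/flox with Ksp-cre on a Tfe3-/- background, a null allele carried by every cell of the animal. Each knockout had controls of its own cross, labelled only as control, with n = 5 for Flcn, n = 3 for Flcn/Tfeb and n = 8 for Flcn/Tfe3. The Flcn/Tfe3 libraries were deposited in 2 tables, called here set B (3 controls, replicates 1 to 3, and 6 knockouts, replicates 1 to 6) and set C (5 controls, replicates 4 to 8, and 4 knockouts, replicates 7 to 10). The 17 libraries of the other crosses are called set A. Because whole kidneys were used, fewer cells of a type and less RNA per cell cannot be told apart.

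Cytosolic ribosomal proteins, together with ribosomal RNA, form the ribosome, which makes the proteins encoded in the nucleus. Their genes are expressed in every cell and at near-stoichiometric levels of protein, and their mRNAs begin with a C followed by a run of pyrimidines, the terminal oligopyrimidine (TOP) tract, through which mTORC1 controls their translation. Folliculin works in amino acid signalling to mTORC1 and controls phosphorylation of Tfeb and Tfe3, which bind E-box sequences with the core CACGTG and switch on lysosomal genes. The reads here measure the mRNA level of the genes and not its translation.

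Libraries held 1652649 to 4239356 counts on genes, with a median of 2992169. The summed level of 9 kidney epithelial markers, Cdh16, Umod and Aqp2 among them, was between 2523 and 3891 CPM (counts scaled to library size, here with TMM factors, the trimmed mean of M values) in every library. Within that list Umod was called higher in Flcn KO (log2 fold change 1.0) and Flcn/Tfe3 DKO kidneys (0.71), and Aqp2 was called lower in set C (-0.61) by edgeR. Flcn itself was at 13.9 ± 2.26 CPM in controls (SD, n = 5) and 15.1 ± 3.25 CPM in Flcn KO kidneys (SD, n = 5). Tfeb was at 11.96 ± 6.67 CPM in the Flcn/Tfeb controls (SD, n = 3) and 7.47 ± 0.680 CPM in the knockouts (SD, n = 4). Tfe3 was at 20.999 ± 5.05 CPM (SD, n = 3) against 19.5 ± 4.68 CPM (SD, n = 6) in set B and at 18.2 ± 0.674 CPM (SD, n = 5) against 17.1 ± 1.45 CPM (SD, n = 4) in set C, so its level does not show the loss given in the labels. The 3′ reads count only the end of a transcript, and its place relative to the deleted part is not given in the sources used here, so these levels do not check the labels.

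RefSeq (GRCm38.p6) held the start region of 60 of the 79 genes, 250 bases before to 50 bases after the annotated start. At the annotated start itself, 13 of 60 (21.7%) had a C followed by at least 4 pyrimidines, against 3.01% of the 27025 genes in that table. Within 10 bases on either side of the start the counts were 33 of 60 (55%) and 28.8%. A few are shown for the genes named later, from 8 bases before the start to 22 bases into the first exon, with the pyrimidine run in capitals and read on the strand of the gene.
Rps6 (chr4:86857346-86857375, minus strand): agtcgggcCTCTTTTTCgtgacgcctccca
Rps15a (chr7:118116126-118116155, minus strand): tctgccatCTTCCCTCgccggtgagtgagt
Rps21 (chr2:180257371-180257400, plus strand): gacccgccCTCCTgcccaatagtgctgcgg
Rps27 (chr3:90213627-90213656, minus strand): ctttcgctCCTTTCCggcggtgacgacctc
Rpl28 (chr7:4792957-4792986, plus strand): tcgtgtctCTCTTTCCgtctccggccgcca
Rpl35 (chr2:39005110-39005139, minus strand): gccctttcCTCTTTCTCTCgaaccaggctg

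The core of the Tfeb and Tfe3 binding sequence, CACGTG, which reads the same on both strands, was in the start region of 6 of 60 genes (10%) and of 8.09% of all genes in the table. These were Rpl13a, Rpl14, Rpl19, Rpl23, Rpl34 and Rps19. The longer form TCACGTGA, which contains CACGTG, was in 1 of 60 (1.67%), Rpl34, and in 1.12% of all genes. The letters CCGGAAG, read on both strands, were in 25 of 60 (41.7%) and in 9.93% of all genes. AAGATGG, on both strands, was in 9 of 60 (15%) and 7.28%, and TATAAA, on the strand of the gene, in 5 of 60 (8.33%) and 9.77%. The stretches around CACGTG are shown for these 6 genes, whose values are given later, with the motif in capitals.
Rpl34 (chr3:130730536-130730565, minus strand): cacctaacttcTCACGTGAcgttcctaccg
Rps19 (chr7:24884781-24884810, plus strand): tggagccgcggcCACGTGcgagcggcaggc
Rpl19 (chr11:98026679-98026708, plus strand): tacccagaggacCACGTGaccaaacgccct
Rpl13a (chr7:45128928-45128957, minus strand): cgctccgaaaccCACGTGacatcccgcccc
Rpl14 (chr9:120571337-120571366, plus strand): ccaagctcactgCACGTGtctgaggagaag
Rpl23 (chr11:97782425-97782454, minus strand): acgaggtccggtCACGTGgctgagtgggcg
The match lies 217 and 156 bases before the 2 annotated starts of Rpl34 and 120, 200, 168 and 3 bases before those of Rps19, Rpl13a, Rpl14 and Rpl23. In Rpl19 it lies 19 bases before the nearer of 2 annotated starts. A match is a description of these letters and says nothing of binding.

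Levels of single genes spanned a wide range. The library protocol gives about 1 read position per transcript, at the 3′ end, so levels are given in CPM with no division by length. Rps14 was highest, with a mean of 6065 ± 2645 CPM over the 35 libraries (SD), followed by Rps12 (5399 ± 3445), Rplp1 (3971 ± 1027), Rps24 (3932 ± 2539) and Rps26 (3766 ± 513). The SDs of these neighbours overlap, and the order differed between groups. In set C controls Rps12 (6943 ± 3840 CPM) had a higher mean than Rps14 (6002 ± 2189 CPM), and in set C knockouts Rps26 (3252 ± 272 CPM) was above Rps14 (2857 ± 193 CPM). The 5 lowest of the 76 were Rpl10 (153 ± 83.7 CPM), Rpl29 (118 ± 42.7), Rpl10a (99.4 ± 41.4), Rpl15 (63.9 ± 39.9) and Rps6 (56.6 ± 48.3). Rps6, the small-subunit protein that S6 kinase phosphorylates downstream of mTORC1, was thus counted 107-fold below Rps14. In all, 40 of the 76 had a mean above 1000 CPM and 7 were below 200 CPM.

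Some members share their 3′ sequence with other genes. Reads aligned to several places were tallied apart from the gene counts in 26 libraries, and set B had no such tally. For 48 of the 79 genes at least 1 window of 100 bases, the read length, occurs without a mismatch in another annotated gene, mostly a pseudogene. These windows were taken within the last 300 bases of the transcript. The share of such windows was 79.1% for Rps6, 94.5% for Rpl15, 84.1% for Rpl10a, 100% for Rpl10 and 10.9% for Rpl29. It was also 100% for Rps12, the second highest gene, and 0% for Rps14 and Rps24. The median level was 1207 CPM for the 28 tested genes with no repeated window, 1040 CPM for the 21 with less than 50% and 979 CPM for the 27 with 50% or more. Levels of single genes therefore describe what could be counted uniquely and not the full amount of mRNA.

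The relatives with their own symbols were of 2 kinds. Rpl3l was counted 54 times over all 35 libraries, Rpl39l 30 times and Rpl10l 13 times, and in 12, 27 and 32 libraries respectively the count was 0. A count of 0 allows a level of up to 0.708 to 1.82 CPM, depending on the depth of the library and for counting error only. Rps27l, a relative of Rps27 known as a p53 target, was expressed at 268 ± 136 CPM beside 1050 ± 380 CPM for Rps27. Rpl3 was at 1041 ± 240 CPM, Rpl39 at 589 ± 224 CPM and Rps4x at 410 ± 138 CPM.

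The 79 genes took between 6.65% and 14.4% of the gene counts of a library. Within the Flcn cross the controls were at 11.7%, 10.0%, 9.73%, 7.10% and 6.65% and the Flcn KO kidneys at 10.7%, 8.33%, 9.66%, 10.8% and 8.66%. The controls spanned the knockouts, and the means were 9.04 ± 2.12% and 9.63 ± 1.14% (SD, n = 5 each), a difference of 0.591 percentage points. In the Flcn/Tfeb cross the controls were at 13.98%, 12.7% and 6.86% and the knockouts at 12.1%, 13.3%, 13.2% and 14.2%. The means were 11.2 ± 3.80% (SD, n = 3) and 13.2 ± 0.843% (SD, n = 4). That difference, 2.02 percentage points, was -0.141 points without control replicate 3, so 1 control library decided it.

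Among Flcn/Tfe3 libraries the sets went apart. In set B the controls were at 9.05%, 9.38% and 7.92%, and the 6 knockouts ran from 7.41% over a median of 9.51% to 10.8%. In set C the controls were at 12.7%, 14.4%, 6.88%, 10.3% and 11.9% and the knockouts at 6.72%, 6.74%, 7.48% and 7.08%. The difference of means was 0.472 percentage points in set B and -4.22 points in set C. Control replicate 6 lay inside the range of the set C knockouts, and the other 4 controls lay above it. Large-subunit and small-subunit genes each showed this split, with means of 5.42 ± 1.21% (SD, n = 5) against 3.65 ± 0.175% (SD, n = 4) and 5.81 ± 1.66% against 3.35 ± 0.187%. Taken over all tallied reads, uncounted ones included, the share was 3.99 ± 0.478% in Flcn controls and 3.95 ± 0.218% in Flcn KO kidneys (SD, n = 5 each), so that the sign of this small difference turned. In set C it was 5.04 ± 0.728% in controls (SD, n = 5) and 3.89 ± 0.191% in knockouts (SD, n = 4).

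**Figure D1:**
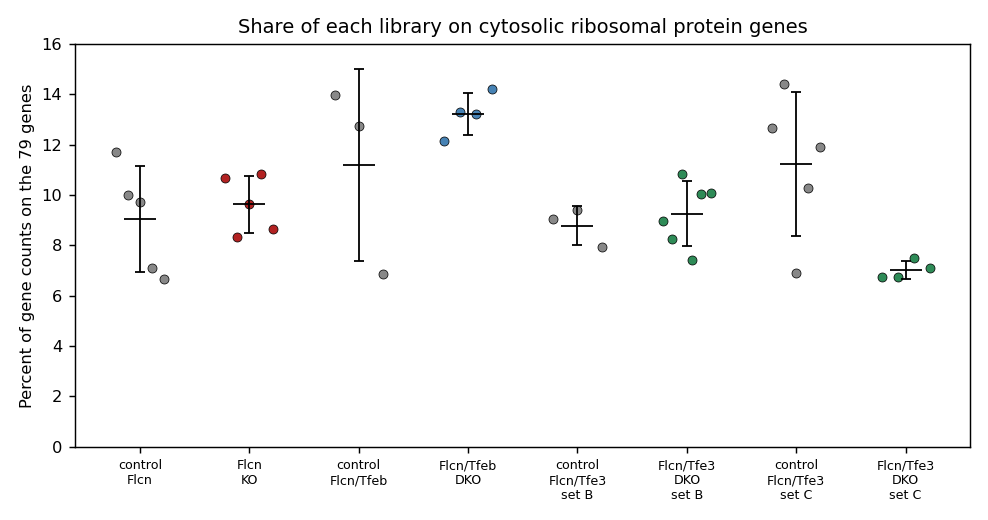
Percent of gene counts on the 79 cytosolic ribosomal protein genes (vertical axis) for each of the 35 libraries, by group and set. Points are libraries, the wide bar is the mean and the error bar the SD. The 4 set C knockouts sit between 6.72% and 7.48%, and low controls are seen in the Flcn (2 libraries), Flcn/Tfeb (1) and set C (1) groups.

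With Flcn alone removed, estimates for the ribosomal protein genes lay on both sides of 0, and equality with the controls was not tested. None of the 76 passed the test in edgeR's quasi-likelihood analysis (adjusted p under 0.05 over 11932 genes, of which 0.52% were called), 2 had an unadjusted p under 0.05 where 9.07% of all genes did, and DESeq2 also called none. Estimates were positive for 50 of the 76 and for 48.5% of all genes. Its median was 0.07 for these genes and -0.01 for all genes tested. Changes of less than 10% in either direction were estimated for 43 of the 76.

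The member with the lowest estimate in Flcn KO kidneys was Rps2, a small-subunit protein near the mRNA entry channel. It was at 220, 199, 255, 341 and 256 CPM in controls and at 174, 211, 173, 153 and 236 CPM in Flcn KO kidneys. The ranges overlapped, and the log2 fold change was -0.42 ± 0.15 (SE, adjusted p = 0.368 by edgeR). Rpl7a (-0.30 ± 0.14) and Rpl28 (-0.28 ± 0.12) came next, with adjusted p of 0.55 and 0.507. The highest estimates were those of Rps27l (0.43 ± 0.27), Rps25 (0.36 ± 0.29) and Rpl27a (0.33 ± 0.23), with adjusted p between 0.655 and 0.734. Without control replicate 5 the median was -0.02, and without control replicate 1 it was 0.17.

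With Tfeb removed in addition, most estimates lay above 0 and none passed the test. Estimates were positive for 70 of 76 members, against 47.9% of all genes, and the median was 0.27 against -0.02. Neither edgeR nor DESeq2 called any of the 76, nor any of the 12469 genes tested (0.0% called), and 1 of the 76 had an unadjusted p under 0.05 where 5.07% of all genes did. The knockouts and controls did not overlap for 2 genes, Rpl11 and Rpl10a, both higher in knockouts, a pattern that 2.9% of all genes showed. Rpl11, which with Rpl5 and ribosomal RNA can bind the p53 regulator Mdm2, was at 1796, 1751 and 931 CPM in controls and 1948, 1880, 1847 and 2134 CPM in Flcn/Tfeb DKO kidneys.

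Control replicate 3 of this cross stood far from the other controls. Rps24, a small-subunit gene mutated in some cases of Diamond-Blackfan anaemia, was at 6932, 6560 and 972 CPM in controls and at 5918, 7062, 7868 and 8263 CPM in knockouts. Its log2 fold change of 0.59 ± 0.52 (adjusted p = 0.808 by edgeR) was the highest of the 76 and fell to 0.10 without that control. Rps12 gave 0.54 ± 0.56 and Rpl17 0.53 ± 0.41. Without control replicate 3 the median of the 76 was 0.01. With the mitochondrial share as a covariate it was -0.24, and the estimates of Rps24 (-0.58), Rps12 (-0.69) and Rpl17 (-0.44) were below 0. Rpl29 (-0.79 ± 0.36) and Rps2 (-0.53 ± 0.33) had the lowest estimates, and the same control was the highest for both. Rpl29 was at 71.8, 52.0 and 153 CPM in controls and 80.6, 51.2, 48.0 and 38.2 CPM in knockouts. Its estimate was -0.19 without control replicate 3, while that of Rps2 became 0.19.

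Library measures and markers also differed in this cross. The mitochondrial share was 8.12 ± 3.26% in controls (SD, n = 3) and 11.5 ± 0.724% in knockouts (SD, n = 4), and the share of reads in no annotated gene was 15.6 ± 5.75% and 19.1 ± 0.258%. Estimates were positive for all 3 skeletal muscle markers tested, whose list of 5 summed to 7.76 to 56.0 CPM in controls and 17.5 to 336 CPM in knockouts. They were positive for all 5 red blood cell markers, which summed to 3484 to 6027 CPM and 4033 to 7307 CPM. All 5 myeloid markers were also above 0 (median 0.32). Estimates were below 0 for all 5 endothelial markers (median -0.27) and 8 of 9 kidney epithelial markers (-0.16). They were also below 0 for 4 of 5 podocyte (-0.33) and 4 of 5 proliferation markers (-0.42). None of these markers was called by edgeR. The ranges of summed levels overlapped, except for proliferation markers, at 689 to 979 CPM in controls and 575 to 663 CPM in knockouts. The part of the markers in the result was not tested.

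**Figure D2:**
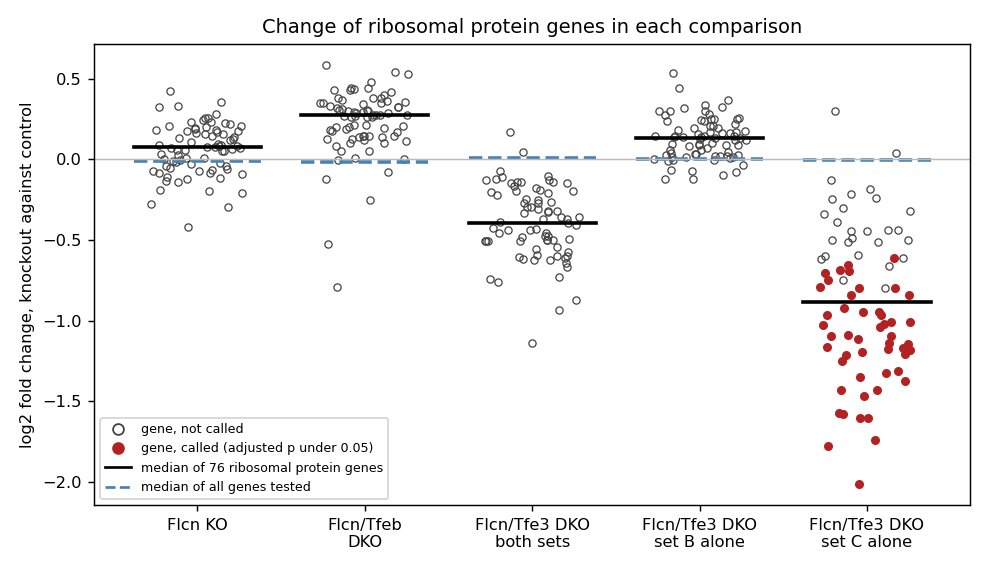
Log2 fold change of the 76 tested ribosomal protein genes, knockout against control, in the 3 crosses and in sets B and C of the Flcn/Tfe3 cross. Each circle is a gene, filled where called; the black line is the median of the 76 genes (0.07, 0.27, -0.39, 0.14 and -0.88) and the dashed line that of all genes tested.

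In Flcn/Tfe3 DKO kidneys the estimates lay below 0 for 74 of 76 genes when both sets were fitted together with set as a term. The median log2 fold change was -0.39 against 0.01 for all genes, and the estimate was above 0 for 2 of the 76 and for 51.9% of all genes. No ribosomal protein gene was called by edgeR over 12456 genes (0.385% called), and none by DESeq2. At an unadjusted p under 0.05, 36 of the 76 were lower, against 3.48% of all genes. The lowest estimates belonged to Rpl34 (-1.14 ± 0.37, adjusted p = 0.357), Rps12 (-0.93 ± 0.30, adjusted p = 0.334) and Rps24 (-0.87 ± 0.31, adjusted p = 0.434). The highest were those of Rpl29 (0.17 ± 0.16), Rpl28 (0.05 ± 0.12) and Rps4x (-0.07 ± 0.12).

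The 2 sets did not give the same picture. In set B alone, 66 of 76 members had positive estimates, against 50.3% of all genes. The median was 0.14, none of the 76 was called by edgeR or DESeq2 (0.0606% of 13191 genes were called by edgeR), and 1, Rps27l (0.54 ± 0.20), had an unadjusted p under 0.05 where 6.56% of all genes did. In set C alone, 49 of 76 were called, all 49 lower in knockouts, where 3.78% of 12169 genes were called lower. The number of these calls, and those of single genes, depended strongly on which libraries were fitted. It ran from 1 to 68 over the 9 fits with 1 library left out. Leaving out knockout replicates 7, 8 or 10 left 2, 2 and 1 of the 76 called, leaving out control replicate 4 or 8 left 27, leaving out knockout replicate 9 left 28, and leaving out control replicate 6 raised the count to 68. The median log2 fold change stayed between -1.05 and -0.73 in these fits. With the mitochondrial share of each library as a covariate none was called and the median was -0.48. With all 9 libraries and no covariate the median log2 fold change in set C was -0.88, or 54.3% of the control level, against -0.0027 for all genes, and estimates were positive for 2 of the 76 and 49.6% of all genes. Small-subunit genes were called lower in 24 of 30 cases (median -1.06) and large-subunit genes in 25 of 46 (median -0.77). The choice of set C and set B as separate comparisons was made after their values were seen.

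Rpl34, on chr3:130726831-130730398 (mm10), fell most in set C. Its level was 2980, 3795, 765, 1916 and 2425 CPM in controls and 704, 435, 747 and 504 CPM in knockouts, so that the groups did not overlap. The log2 fold change was -2.02 ± 0.32 (adjusted p = 0.00583 by edgeR). Rps27l was at 480, 556, 137, 294 and 321 CPM in controls and 116, 134, 128 and 99.0 CPM in knockouts (-1.60 ± 0.28, adjusted p = 0.00785). Rps12 was at 7606, 12680, 2167, 5263 and 6996 CPM in controls and at 2000, 1967, 2238 and 2049 CPM in knockouts (-1.78 ± 0.32, adjusted p = 0.00817). The knockouts were close to each other for Rps12 and differed more for Rpl34, and control replicate 6 was next to them for all 3 genes.

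Other genes with the smallest adjusted p in set C were Rps21 (-1.47 ± 0.27), Rps25 (-1.57 ± 0.29), Rpl17 (-1.61 ± 0.30), Rpl9 (-1.43 ± 0.27), Rps15a (-1.35 ± 0.26), Rpl35 (-1.58 ± 0.30) and Rps24 (-1.74 ± 0.34), with adjusted p from 0.00822 to 0.00878. Groups did not overlap for 8 of the 76, all lower, a pattern shown by 2.46% of all genes. Rpl34, Rps27l, Rpl22, Rps14, Rpsa, Rplp1 and Rplp2 were among them. Rpl22 was at 1511, 1999, 638, 1082 and 1381 CPM in controls and 595, 585, 636 and 610 CPM in knockouts. Rps6 was called lower (-1.18 ± 0.27, adjusted p = 0.0199 by edgeR), at 254, 159, 59.9, 103 and 167 CPM in controls and 56.0, 65.1, 67.5 and 76.8 CPM in knockouts. Rpsa, also known as the laminin receptor, was at 1195, 1158, 754, 990 and 1237 CPM in controls and 752, 723, 685 and 675 CPM in knockouts.

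**Figure D3:**
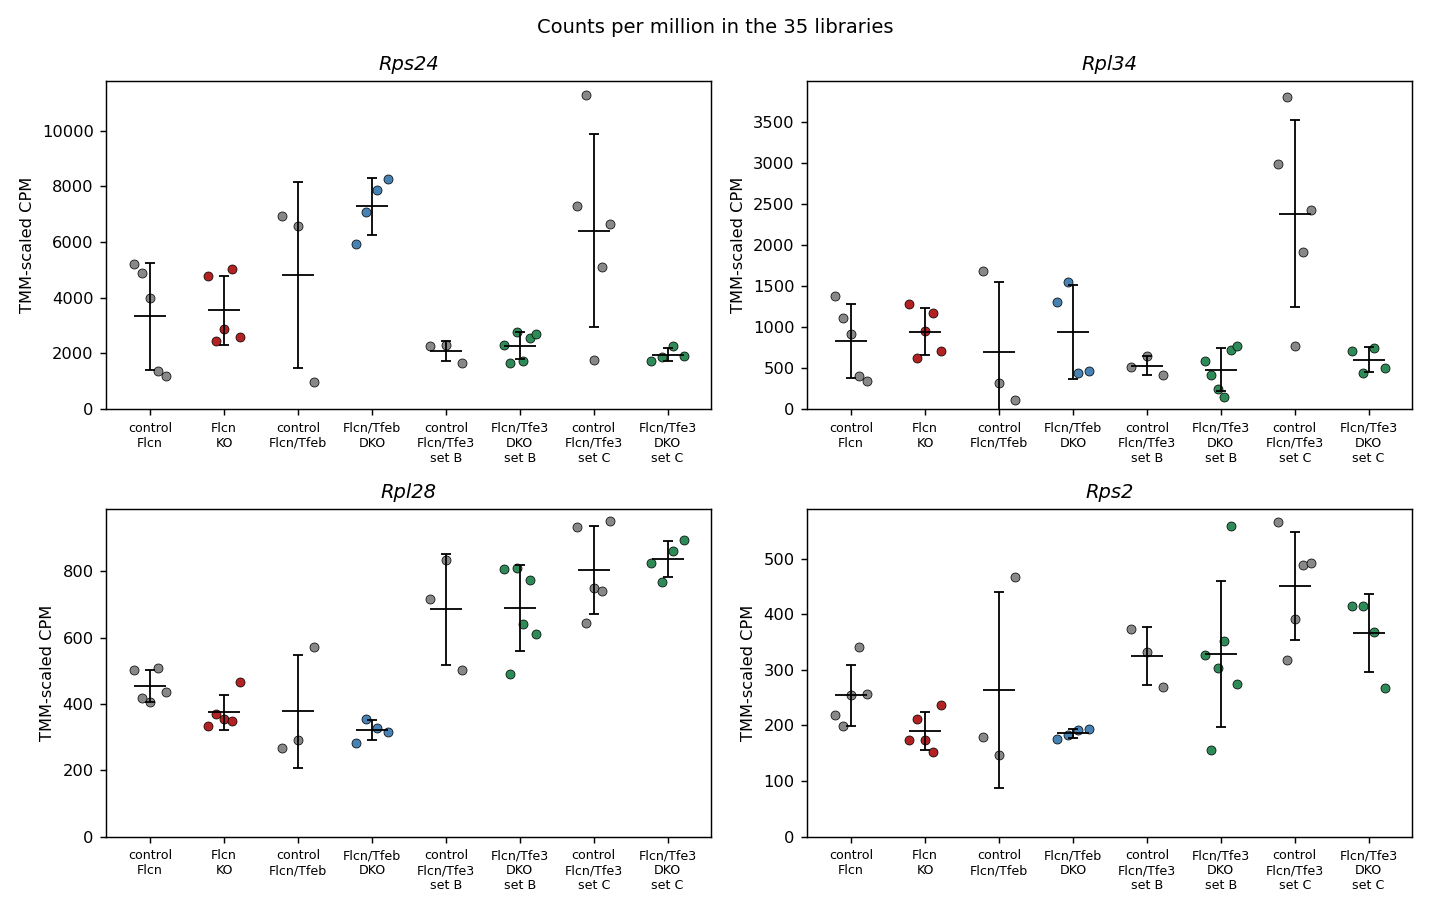
TMM-scaled CPM (vertical axis) of Rps24, Rpl34, Rpl28 and Rps2 in each library, by group and set, with mean and SD (bars are cut at 0). In set C the knockouts lie below all 5 controls for Rpl34 and below 4 of the 5 for Rps24, while Rpl28 and Rps2 overlap between these groups.

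Rps19, Rpl5, Rpl41 and Rps27 were also among the 49 of 76 members called lower in set C, where 3.78% of all genes were. Rps19, the gene most often mutated in Diamond-Blackfan anaemia, was at 2491, 3336, 972, 1969 and 2415 CPM in controls and 973, 1028, 1007 and 997 CPM in knockouts (-1.18 ± 0.24, adjusted p = 0.0115 by edgeR). Rpl5, the partner of Rpl11, was at 884, 986, 278, 592 and 889 CPM in controls and 272, 267, 324 and 315 CPM in knockouts (-1.32 ± 0.26, adjusted p = 0.00918). The only overlap in these genes came from control replicate 6. Rpl11 itself was not called (-0.61 ± 0.19, adjusted p = 0.0684). Rpl41, which encodes the shortest of these proteins, had an estimate of -1.38 ± 0.30, and Rps27 one of -1.20 ± 0.24, both called lower.

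Genes with CACGTG in the start region were not of 1 kind. In set C 5 of the 6 were called lower, Rpl34, Rps19, Rpl13a (-1.11 ± 0.24), Rpl14 (-0.84 ± 0.19) and Rpl19 (-0.84 ± 0.21), and Rpl23 was not (-0.22 ± 0.15, adjusted p = 0.436 by edgeR). Of all 76 members 49 were called lower there, and of all genes 3.78%, and nothing is read from the motif. Rpl19 was at 536, 349, 192, 328 and 434 CPM in controls and 192, 200, 207 and 232.7 CPM in knockouts. In the Flcn and Flcn/Tfeb crosses none of the 6 was called, with estimates from -0.12 to 0.25 and from 0.05 to 0.42.

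Members of set C that did not pass the test included Rpl28, Rps26, Rpl29, Rpl4 and Rps2. Rpl28 was at 934, 643, 751, 739 and 951 CPM in controls and 825, 768, 860 and 894 CPM in knockouts (0.04 ± 0.15, adjusted p = 0.903). Rps26, one of the 5 most abundant, was at 3459, 3753, 3571, 3547 and 3862 CPM in controls and 3086, 3041, 3639 and 3244 CPM in knockouts (-0.18 ± 0.15, adjusted p = 0.501). Among the 3 stalk genes, whose proteins recruit elongation factors, Rplp1 was called lower, and Rplp0 and Rplp2 were not. 

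Some markers and library measures differed along with the ribosomal protein genes in set C, and the marker lists went in both directions. Red blood cell markers moved in the same direction: 4 of 5 (Hba-a1, Hba-a2, Hbb-bs and Hbb-bt) were called lower in set C, where their list summed to 2073 to 7568 CPM in controls and 1395 to 1839 CPM in knockouts. The share of mitochondrially encoded counts was 4.93 ± 1.79% (SD, n = 5) in controls and 3.33 ± 0.659% (SD, n = 4) in knockouts. Of the 2 fat markers tested, Fabp4 was called lower (-0.92), and that list summed to 228 to 595 CPM in controls and 240 to 258 CPM in knockouts. Proliferation markers summed to 715 to 1152 CPM in controls and 988 to 1212 CPM in knockouts. Estimates were above 0 for 3 of 5 proliferation (median 0.16), 4 of 5 podocyte (0.17) and 4 of 5 endothelial markers (0.12). They were above 0 for 3 of 5 nephron progenitor, 2 of 5 stromal and 2 of 5 myeloid markers. None in these lists was called. Of the 9 kidney epithelial markers 4 were above 0, with Umod called higher (0.75) and Aqp2 lower (-0.61). A fit with the mitochondrial share as a covariate is described above with the set C calls. The part of the markers in the result was not tested.

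The difference between the set C and set B effects was tested as well. Of the 76 genes 16 were called, all with a lower effect in set C, where 1.12% of 12456 genes were called in that direction, and the median difference was -1.03 against 0.04 for all genes. The largest was that of Rps27l, -2.09 ± 0.39 (adjusted p = 0.0428 by edgeR). Among the others were Rps3, Rps12, Rps15a, Rps21, Rps24, Rps25 and Rps27 of the small subunit and Rpl9, Rpl17, Rpl22, Rpl27, Rpl32 and Rpl35 of the large subunit, with differences from -1.83 to -1.18. All 16 had adjusted p between 0.0428 and 0.0483, close to the threshold. The count ran from 0 to 61 when 1 library was left out, with 61 without control replicate 6 and 0 without any of control replicates 1, 3, 4, 5 and 8 or knockout replicates 3, 5, 6, 7, 8, 9 and 10. It was 32 without knockout replicate 2 and 45 without knockout replicate 4. DESeq2 called 46, and scaling to library totals left none.

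Between crosses no difference was called for any of the 76 genes by edgeR or DESeq2. The Flcn/Tfeb DKO effect minus the Flcn KO effect had a median of 0.15 (0 of 76 with unadjusted p under 0.05, against 5.95% of all genes, and 0.0153% called). Without Flcn/Tfeb control replicate 3 it was -0.06. The Flcn/Tfe3 DKO effect minus the Flcn KO effect had a median of -0.46, with 18 of 76 at unadjusted p under 0.05 against 7.4% of all genes (0.0% called). Against the Flcn/Tfeb DKO effect the median was -0.68, with 19 of 76 against 12.2% of all genes (0.022% called). Fitted on set B libraries it was -0.13, and on those of set C -1.14. With set C alone the difference from the Flcn KO effect was called for 27 of the 76, against 3.58% of all genes, with a median of -0.96, and with set B alone for none, with a median of 0.04.

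Beyond the group means, the ribosomal protein genes moved up and down together from library to library. After the mean of each group and set was taken off, the Pearson correlation of log2 CPM over the 35 libraries averaged 0.633 over the 2850 pairs of the 76 genes and 0.000933 over pairs of all 13728 genes. Correlations were above 0 for 91.6% of the pairs and above 0.5 for 73.8%. Libraries share depth and scaling, and these values are descriptions. TMM scaling levels most genes between libraries, so the average over all pairs lies near 0 by design and is no baseline. Short, abundant genes outside the group also followed the members, as given below. The mean was 0.701 within the small subunit, 0.589 within the large subunit and 0.644 between them. It was 0.559 in set A, 0.649 in set B and 0.766 in set C. A single component held 79.1% of the variance of the 76 genes and the next 9.20%.

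**Figure D4:**
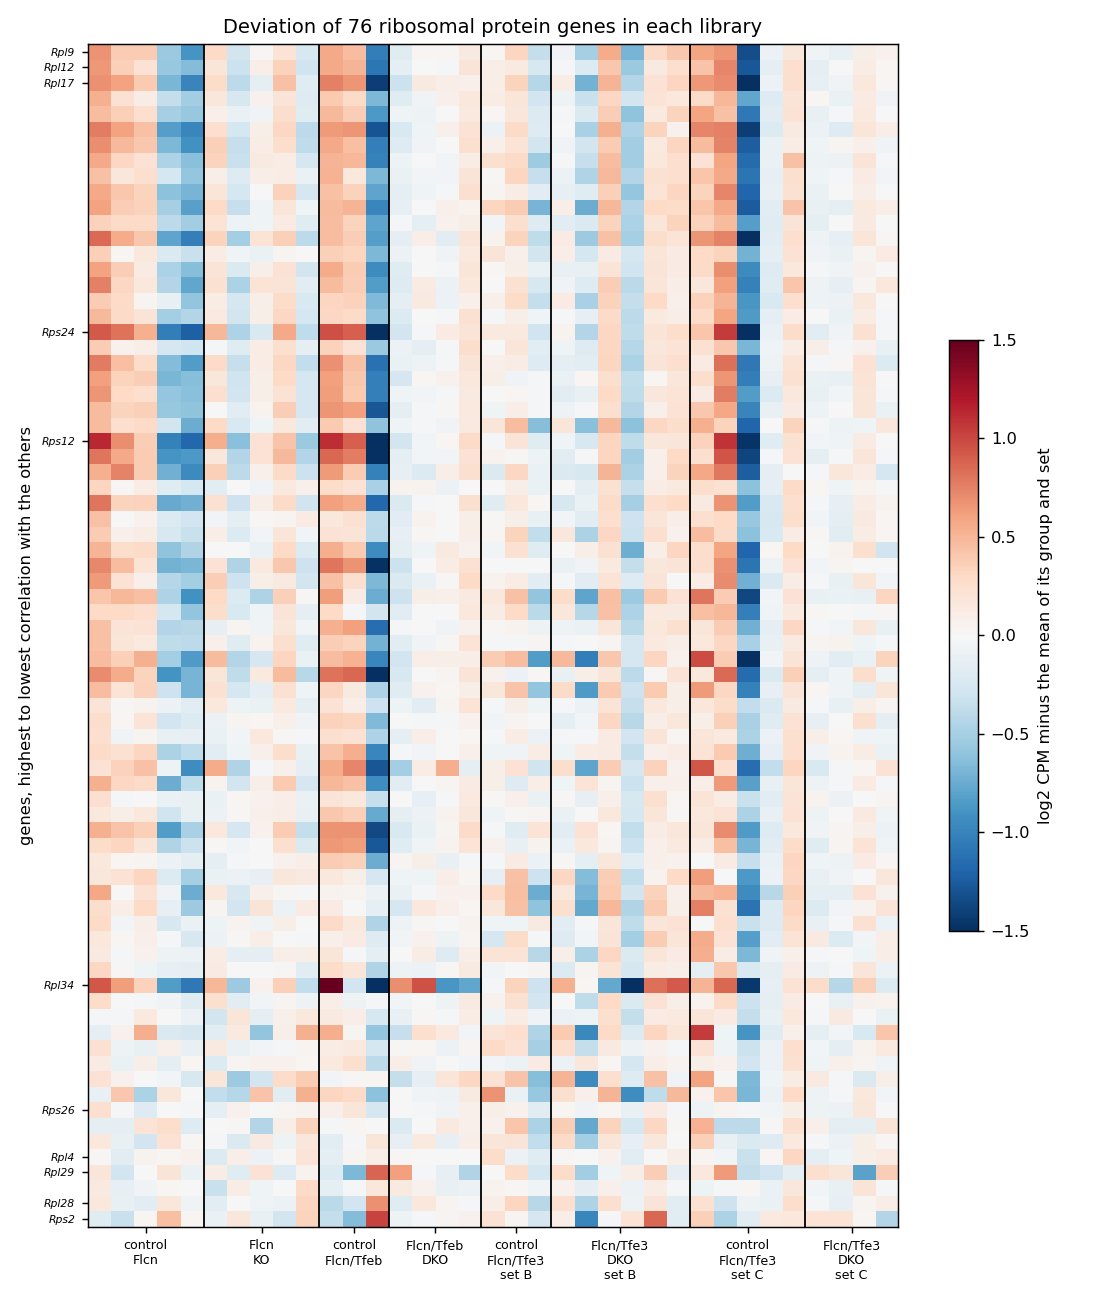
Deviation of log2 CPM of each of the 76 genes (rows) from the mean of its group and set, for each of the 35 libraries (columns, in replicate order within a group). Genes are ordered from the highest to the lowest correlation with the mean of the others, from Rpl9 (0.987) to Rps2 (-0.27), with names on 11 of the rows; the third Flcn/Tfeb control and the third set C control, replicate 6, are low in almost every row.

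Rpl9 followed the mean of the other members most closely (r = 0.987), before Rpl12 (0.984) and Rpl17 (0.982). Rpl9 was at 1048, 850, 853, 446 and 354 CPM in the Flcn controls, at 1204, 1115 and 394 CPM in the Flcn/Tfeb controls and at 1485, 1565, 392, 925 and 1105 CPM in the set C controls. Within each of these groups it was low in the libraries whose whole ribosomal share was low. The genes also differed in how far they moved: a change of 1 log2 unit in the others went with 2.25 in Rps24, 2.21 in Rps12, 2.11 in Rpl34 and 1.92 in Rpl17, and with 0.17 in Rps26 and 0.086 in Rpl4.

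A few genes did not follow. Correlation with the others was -0.27 for Rps2, -0.13 for Rpl28 and -0.07 for Rpl29. Rps2 was at 179 and 147 CPM in Flcn/Tfeb control replicates 1 and 2 and at 467 CPM in replicate 3, the library where Rps24 was 972 CPM. Rpl28 was also highest in replicate 3, at 269, 291 and 572 CPM. Rpl4, a large-subunit protein that lines the exit tunnel, stayed between 612 and 1408 CPM with a correlation of 0.19.

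The libraries that were low in ribosomal protein mRNA differed in other ways. The mean deviation of the 76 genes was lowest in Flcn/Tfe3 control replicate 6 (-0.83), Flcn/Tfeb control replicate 3 (-0.68), Flcn control replicate 5 (-0.48), Flcn/Tfe3 DKO replicate 4 of set B (-0.37) and Flcn control replicate 4 (-0.34), where 75, 69, 70, 74 and 66 of the 76 were below their group mean. In the 26 libraries with a tally of uncounted reads, the share of reads aligned to several places ran from 33.7% to 49.4%. The share in no annotated gene ran from 7.92% to 19.9%. The first share may itself hold reads of the members, since 48 of the 79 have repeated 3′ windows. It is therefore not independent of their level. After group means were taken off, the deviation rose with the first (Pearson's r = 0.94, Spearman's rho = 0.891, permutation p = 5e-05 and 8e-05 within groups) and with the second (r = 0.889, rho = 0.869, p = 5e-05 and 2e-05). It rose with the mitochondrial share (r = 0.704, rho = 0.607, permutation p = 0.0012 and 0.0027, n = 35) and fell with total counts (r = -0.53, rho = -0.59, permutation p = 0.0044 and 0.0013, n = 35).

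These were 8 two-sided tests of 4 measures, and the Benjamini-Hochberg adjusted p ran from 0.00013 to 0.0044. Without the 2 libraries farthest from the median, r was 0.884, 0.836, 0.622 and -0.56 in the same order. Within set A r was 0.936, 0.94, 0.896 and -0.73 (n = 17) and within set C 0.951, 0.831, 0.751 and -0.46 (n = 9). Set B had no tally, and its r was -0.61 with the mitochondrial share and 0.07 with total counts (n = 9), so that neither relation held there. Both shares of uncounted reads were lower in the set C knockouts, at 34.9 ± 1.11% and 9.11 ± 1.04% (SD, n = 4), than in the set C controls, at 40.1 ± 3.01% and 13.2 ± 3.48% (SD, n = 5). Their part in the set C result was not tested.

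**Figure D5:**
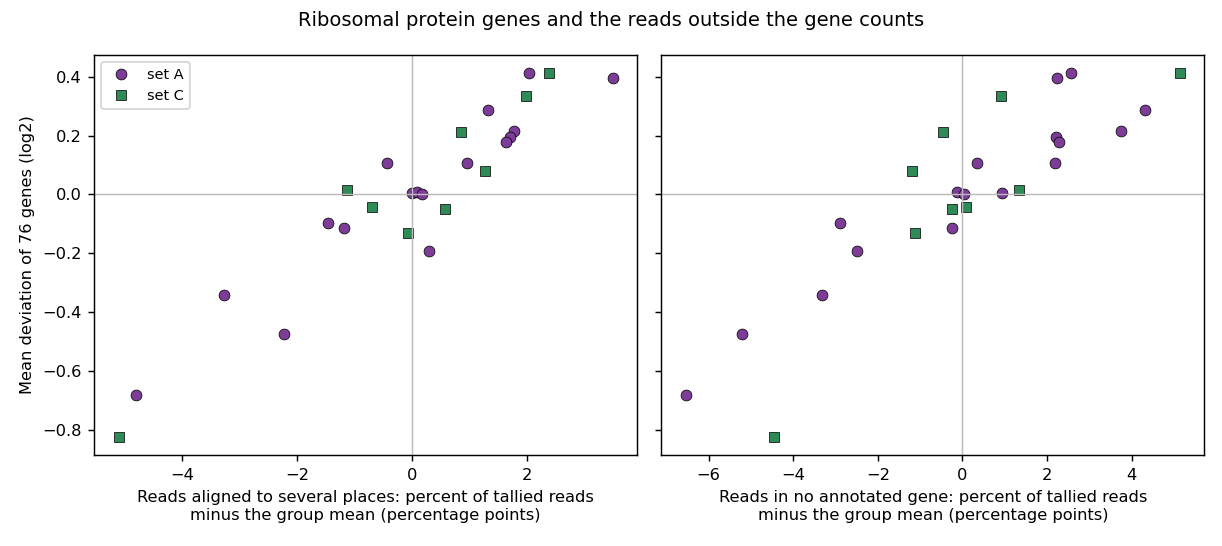
Mean deviation of the 76 genes from their group mean (vertical axis, log2) against the share of reads aligned to several places (left) and in no annotated gene (right), each minus its group mean in percentage points. Each point is 1 of the 26 libraries with a tally; the points of sets A and C rise together (r = 0.94 and 0.889).

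Genes outside the group that followed it most closely, among 7277 with a mean of at least 20 CPM, were Hint1 (r = 0.974 with the mean of the 76), Slirp (0.971), Tomm7 (0.968), Ift20 (0.966) and Snrpe (0.965). The fusion genes Fau (0.959), which encodes a ubiquitin-like protein joined to a ribosomal protein, and Rps27a (0.952), which encodes ubiquitin joined to one, and the relative Rpl22l1 (0.957) were among the first 18. Likeness went with transcript length. The median correlation was 0.694 over 275 other genes with a transcript under 800 bases, 0.261 over 978 of 800 to 1499 bases, -0.10 over 2446 of 1500 to 2999 bases and -0.26 over 3526 of 3000 bases or more. For the 80 short ones with at least 200 CPM the median was 0.861. Correlation of a member with the other members had medians of 0.904, 0.895 and 0.932 for no repeated 3′ windows, under 50% and 50% or more. Close co-movement was thus shared by short, abundant genes outside the group. Ribosomal protein transcripts had a median length of 775 bases, against 2423 over 21899 protein-coding genes.

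Length separated the set C comparison in the same way. Among genes outside the group, the median log2 fold change in set C was -0.52 for 387 with transcripts under 800 bases, 27.6% of which were called lower. It was -0.22 for 1506 of 800 to 1499 bases, -0.04 for 4234 of 1500 to 2999 bases and 0.10 for 5719 of 3000 bases or more, where 0.629% were called lower. For the 80 short ones with at least 200 CPM it was -0.62, with 33 (41.2%) called lower, beside 49 of 76 and a median of -0.88 for the ribosomal protein genes. In Flcn KO kidneys these 80 had a median of 0.29, beside 0.07 for the ribosomal protein genes. Repeated 3′ sequence did not separate the members in this way, with set C medians of -0.99, -0.75 and -0.84 for those with no repeat, under 50% and 50% or more.

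Single genes of set B showed splits of their own. In control replicate 3 and knockout replicate 2, 24 and 21 of the 76 genes were under 0.7 of their median over the 9 libraries, 18 of them in both. Rps23 was at 142 and 133 CPM there and at 228 to 383 CPM in the other 7 libraries. Rps18 was at 497 and 607 CPM in them and at 610 CPM in knockout replicate 4, where 15 of the 76 were under 0.7 of their median. Rpl34 was lowest in knockout replicates 3 and 4, at 240 and 141 CPM, with 415 to 770 CPM in the others. In the Flcn/Tfeb cross Rpl34 was at 1675, 315 and 108 CPM in controls and at 1297, 1551, 437 and 466 CPM in knockouts, where Rps24 ran from 5918 to 8263 CPM.

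Other genes of translation were read from lists. No gene among 8 fusion genes and relatives, 27 translation factors, 35 ribosome biogenesis genes, 19 genes of mTORC1 and Myc control (18 tested in the Flcn and Flcn/Tfeb crosses) and 75 mitochondrial ribosomal protein genes was called by edgeR in any of the 3 crosses. In set C, 5 of 8 fusion genes and relatives were called lower, among them Rpl22l1 (-1.56 ± 0.28, adjusted p = 0.00785) and Rps27a (-1.61 ± 0.32, adjusted p = 0.00983). The share of all genes called lower in set C was 3.78%. Called lower were also 6 of 27 translation factors, among them the elongation factor subunit Eef1b2 (-0.85 ± 0.20) and the nascent chain binding protein Naca (-0.85 ± 0.20), and the median of that list was -0.05. Of the mitochondrial ribosomal protein genes 11 of 75 were called lower (median -0.32), and of the biogenesis genes 2 of 35, Nop10 and Polr1d (median 0.06). None of the 19 mTORC1 and Myc control genes was called, and 17 of them had positive estimates (median 0.25).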

How the data were processed

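RNA from whole kidneys was sequenced from the 3′ end (QuantSeq). By the study's methods the authors trimmed reads with bbduk, aligned them to mm10 with STAR and obtained levels per gene with HTSeq-count. The submitters' processing notes name Trim Galore in place of bbduk. The deposited count tables hold raw counts per gene and are not normalized. A deposited percent column, whose meaning is not given in the sources used here, held no value above 0 and was not used. Rows that name no gene, a tally present for 26 of the 35 libraries, stayed out of library sizes and tests, and their shares are given in the report.

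Members and lists were chosen with earlier results of these data known. Counts were joined by Ensembl identifier. Each cross was compared with its own controls by edgeR 4.0.16 (R 4.3.3; quasi-likelihood F test, TMM factors, filterByExpr, two-sided), with Benjamini-Hochberg adjustment over all genes tested and calls at 0.05. The Flcn/Tfe3 fit had set as a term. DESeq2 1.42.0, other scalings and filters, a replicate block, a mitochondrial covariate and leaving out each library were alternatives. Errors of log2 fold changes are SE. Log2 CPM for correlations used a prior count of 2. Correlations with library measures were tested with 100000 permutations within group and set. Named genes were members called in any comparison (the 10 with the smallest adjusted p where more), the 3 highest and 3 lowest estimates per cross, the 5 highest and lowest levels, the extremes of correlation and a fixed list of well-known members. Other named genes, among them Rpl4, Rpl13a, Rpl14, Rpl19, Rpl23, Rps23 and Rps18, were chosen after their values were seen. A few members that the rule names are not reported here. Transcript lengths and 3′ repeats came from GENCODE M21, which held 30934 of the 31053 identifiers, and start regions from RefSeq. Depth of 1652649 to 4239356 counts limits low genes. In simulated counts with 200 genes changed 2-fold, 78.5% of them were called at the size of the Flcn comparison (11873 genes). The share was 17.5% for Flcn/Tfeb (12349 genes), 90.0% for Flcn/Tfe3 (12443 genes) and 65.0% for set C (12109 genes). Changed genes were picked at random and drawn independently, whereas the ribosomal protein genes moved together from library to library. These percentages are therefore not the power for the ribosomal protein genes.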

Additional observations from a re-analysis of the deposited data

Results flagged for a closer look

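Of 78 checks of whether 1 library lies apart from the others of its group (groups of 4 to 6, for the ribosomal share and the genes with the most extreme estimates), 2 stood out, and chance alone gives about 1 in 20. Rpl28 was at 466 CPM in 1 Flcn KO kidney, replicate 5, and at 334 to 369 CPM in the other 4. Rpl17 was at 1122 CPM in 1 Flcn/Tfeb DKO kidney, replicate 1, and at 1483 to 1543 CPM in the other 3. The Flcn/Tfe3 DKO effect differed between sets C and B for 16 of the 76 ribosomal protein genes by a test of the difference. All 16 had a lower effect in set C, where 1.12% of 12456 genes were called in that direction. The count of 16 ran from 0 to 61 when 1 library was left out.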

How the results depend on the processing

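No ribosomal protein gene was called in any of the 3 crosses under any alternative that kept both sets together, and the medians kept their sign except as follows. The replicate numbers were not taken as pairs in the main fits. Same-numbered samples showed no steady common deviation (correlations from -0.318 to 0.311), which in such small groups cannot exclude a weak pairing. With the replicate block none of the 76 was called in any cross, and the medians were 0.10, 0.29 and -0.27 for Flcn KO, Flcn/Tfeb DKO and Flcn/Tfe3 DKO. With the block Rpl28 was at -0.0026 in Flcn/Tfe3 DKO. When 1 library was left out, the median ran from -0.02 to 0.17 for Flcn KO, from 0.01 to 0.47 for Flcn/Tfeb DKO and from -0.50 to -0.30 for Flcn/Tfe3 DKO. With the mitochondrial share as a covariate the Flcn/Tfeb DKO median was -0.24, and Rpl29 (0.26), Rps2 (0.54), Rpl28 (0.35), Rpl17 (-0.44), Rps12 (-0.69) and Rps24 (-0.58) reversed; the cause was not tested. Leaving out 1 library gave Rps2 -0.81 to 0.19 and Rpl28 -0.44 to 0.19 in Flcn/Tfeb DKO, reversed without control replicate 3, and Rpl28 -0.028 to 0.11 in Flcn/Tfe3 DKO. For Flcn/Tfe3 DKO set B gave a median of 0.14 and set C one of -0.88. In set C 49 of the 76 were called lower, against 3.78% of all genes. The difference in ribosomal share was 0.472 percentage points in set B and -4.22 in set C. In set B alone Rps12 was at 0.039, Rps24 at 0.14, Rps4x at 0.089 and Rpl29 at -0.00080, and Rps4x was at 0.020 with library totals. Against the Flcn KO effect the median was 0.043 with set B and -0.96 with set C. With set C 27 of the 76 were called, against 3.58% of all genes. Against the Flcn/Tfeb DKO effect the median was -0.13 with set B and -1.14 with set C. The Flcn/Tfeb DKO effect minus the Flcn KO effect had a median of -0.06 without Flcn/Tfeb control replicate 3. In set C the mitochondrial covariate left 0 called with a median of -0.48, and leaving out 1 library gave 1 to 68. For set C minus set B, DESeq2 called 46, library totals and the mitochondrial covariate each 0, and leaving out 1 library gave 0 to 61. The mean correlation of 0.633 was 0.485 with library totals, 0.528 with no means removed, 0.559 in set A and 0.766 in set C. These set comparisons and their alternatives were chosen after seeing the data. The share of all genes called under the alternatives and with 1 library left out is not given here. Depth limits the 3 genes near 0 counts, and the Flcn/Tfeb comparison, with 3 controls, recovered few simulated 2-fold changes.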
